A study of Mus musculus with 13 samples.

Results

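The Polycomb complex genes are 9 listed genes: Ezh1, Ezh2, Eed, Suz12, Bmi1, Cbx2, Cbx7, Cbx8 and Ring1. They were found by symbol in a count table of 24015 mouse genes, and all 9 passed the filter on low counts that left 12536 genes for testing. RNA came from haematopoietic stem cells (HSCs), the bone marrow cells from which all blood lineages arise. The study transplanted single HSCs that expressed Vwf, the gene for the platelet protein von Willebrand factor, and recipients were followed over 16 weeks. Donor HSCs were then sorted from recipient marrow and sequenced in bulk, at 100 cells per library. The 13 libraries fall into 3 groups by the blood that the transplanted cell had made. MUL-HSC (4 libraries) came from recipients with multilineage blood, PEM-HSC (6 libraries) from PEM-restricted recipients and PLT-HSC (3 libraries) from P-restricted recipients.

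All groups share the strain C57BL/6, the Vwf+ origin of the transplanted cell and 1 sort gate, LSK Flt3- CD150+ CD48- CD45.2+ Gata1-. No group is a genetic or drug treatment, so the controls for a restricted group are the MUL-HSC libraries. The labels do not say that the libraries of a group come from separate recipients, so p-values here measure only the spread between these libraries. The libraries are bulk samples, in which fewer cells expressing a gene and less RNA per cell cannot be told apart.

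Polycomb proteins keep genes silent through 2 kinds of complex. Polycomb repressive complex 2 (PRC2) methylates histone H3 through Ezh2 or its paralog Ezh1, held together with Eed, which reads the mark, and Suz12, the scaffold. Polycomb repressive complex 1 (PRC1) ubiquitinates histone H2A through Ring1 or Rnf2 paired with a Pcgf protein such as Bmi1, and its Cbx subunits bind the mark that PRC2 leaves. In HSCs, Bmi1 is known for its need in self-renewal and Ezh1 for its need in adult HSC maintenance, Cbx7 for favouring self-renewal over differentiation, and Ezh2 for being abundant in dividing cells.

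E2F factors, which switch on genes of the cell cycle, are known to bind near some Polycomb genes, so the promoters were searched for E2F words. The words were TTTGGCGC, TTTCGCGC, TTTCCCGC and TTTGCCGC on both strands, with no other motif searched, in the 250 bases before each RefSeq gene start of build GRCm38.p6. Windows were found for 8 of the 9 genes, all but Cbx2. A word stood in 1 of the 8, against 1.86% of 32851 windows of the same length, and in 4 of 17 cell cycle genes with a window. The windows of Ezh1 (chr11:101226464-101226713, minus strand), Ezh2 (chr6:47595031-47595280, minus strand) and Suz12 (chr11:79992856-79993105, plus strand) are shown. Ezh1 and Ezh2 are the paralogs whose slopes on cell cycle genes had opposite signs, and Suz12 holds the 1 match. Sequences run 5′ to 3′ on the gene's strand, and capitals mark the word, which starts 219 bases before the gene start.
Ezh1: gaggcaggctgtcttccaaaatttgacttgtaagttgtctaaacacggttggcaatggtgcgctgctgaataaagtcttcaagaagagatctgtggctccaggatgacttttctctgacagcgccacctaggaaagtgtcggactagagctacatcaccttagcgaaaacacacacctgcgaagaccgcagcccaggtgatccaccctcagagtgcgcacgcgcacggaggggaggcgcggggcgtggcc
Ezh2: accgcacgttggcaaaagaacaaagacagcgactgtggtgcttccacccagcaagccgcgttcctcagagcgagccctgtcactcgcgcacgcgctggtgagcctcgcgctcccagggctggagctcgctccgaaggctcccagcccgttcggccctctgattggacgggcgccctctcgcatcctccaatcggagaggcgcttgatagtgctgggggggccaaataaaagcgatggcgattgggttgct
Suz12: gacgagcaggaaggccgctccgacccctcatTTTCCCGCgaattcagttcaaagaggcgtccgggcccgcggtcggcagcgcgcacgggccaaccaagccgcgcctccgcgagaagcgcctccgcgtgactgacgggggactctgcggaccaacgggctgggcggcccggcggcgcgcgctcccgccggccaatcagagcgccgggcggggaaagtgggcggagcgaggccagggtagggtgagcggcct
The windows hold 14, 23 and 37 CpG dinucleotides in the order shown, where the median of all windows is 6. Their GC content is 55.2%, 63.6% and 73.6%, where the median is 52.4%. A match is a description of the letters, and the 7 windows without one lack only these words.

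Between 16371921 and 41367057 counts fell on genes in each library, and between 11233 and 12310 genes were detected. Levels are in CPM, counts scaled to the sum of gene counts in the library, and 3 counts, taken as the floor of detection, equal 0.0725 to 0.183 CPM. All 9 HSC markers checked (Kit, Ly6a, Slamf1, Procr, Hlf, Mecom, Fgd5, Hoxb5 and Ptprc) were detected in all 13 libraries. Transcripts of the genes excluded by the sort (Gata1, Flt3 and Cd48) had summed levels of 13.4 to 89.7 CPM in the MUL-HSC libraries, 6.47 to 25.0 in PLT-HSC libraries and 2.94 to 22.4 in those of PEM-HSC. The globin genes Hba-a1 and Hbb-b1, the B cell gene Ms4a1, the T cell genes Cd3e and Cd3g and the endothelial gene Cdh5 were at 0 in every library. Other genes of these lists were detected. Summed levels of the 3 T cell markers were lowest in a MUL-HSC library (5.83 CPM) and highest in a PEM-HSC library (44.1). Those of 4 endothelial and stromal markers had extremes of 8.97 (PEM-HSC) and 62.5 (PLT-HSC). Erythroid, B cell and neutrophil markers reached at most 9.09, 0.873 and 12.8 CPM, each in a PEM-HSC library. The sum of platelet and megakaryocyte markers had its extremes in MUL-HSC, at 96.1 and 253 CPM. Libraries of a group differed in cell cycle genes. The mean log2 CPM over 20 such genes, centred on all libraries, was -1.997 in MUL-HSC replicate 3 against 1.05 to 1.24 in the other MUL-HSC libraries. It was -2.90 and -1.54 in PLT-HSC replicates 1 and 2 against 1.28 in replicate 3, and -0.86 to 1.63 in PEM-HSC.

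No member passed the test in any comparison between groups. PLT-HSC differed from MUL-HSC in 0 of 9 members by edgeR at an adjusted p under 0.05, where 6 of 12536 genes were called, or 0.0479%. PEM-HSC differed from MUL-HSC in 0 of 9, where 1 gene was called (0.00798%), and PLT-HSC differed from PEM-HSC in 0 of 9, where 0 genes were called (0%). DESeq2 and limma voom also called 0 members in each comparison. Over all genes, PLT-HSC over PEM-HSC gave 467 genes at an unadjusted p under 0.05, and DESeq2 called 93 and voom 1. At an unadjusted p under 0.05 there were 2 members, Eed and Cbx7, in PLT-HSC over MUL-HSC, where 7.37% of all genes stood, and 0 in both other comparisons, where 5.93% and 3.73% stood. The 3 comparisons share libraries and are not independent of each other.

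**Figure D1:**
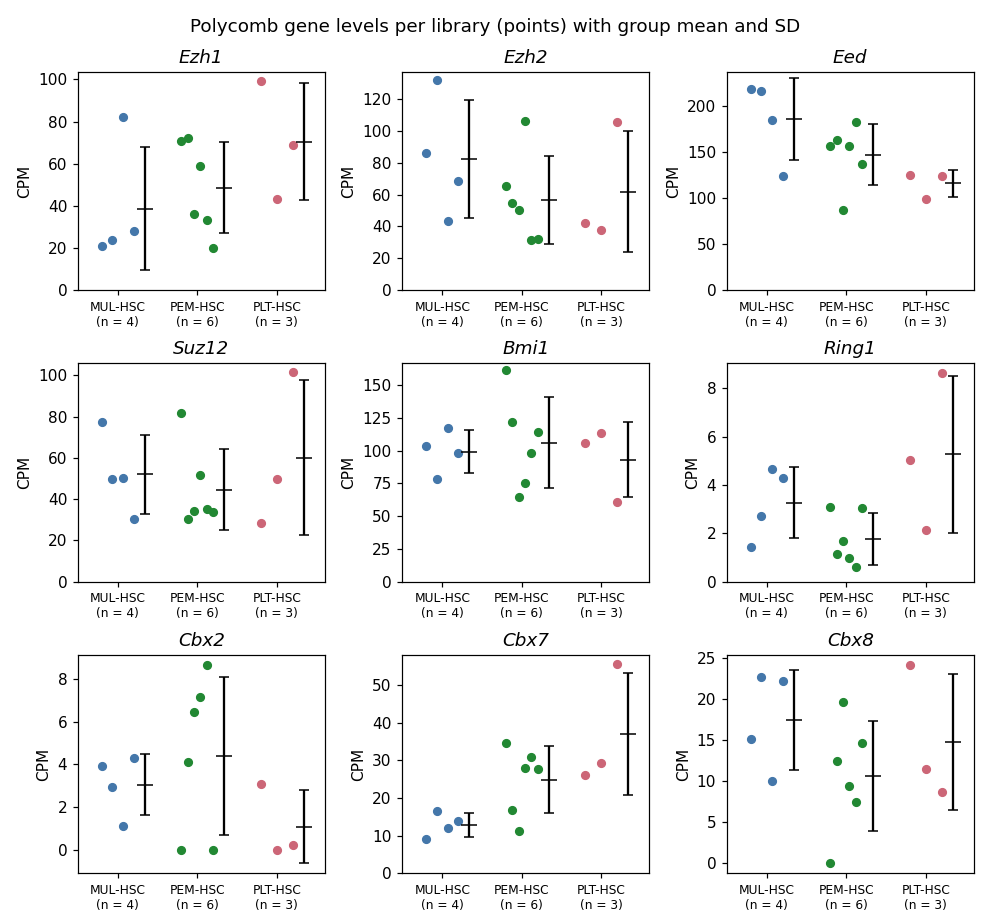
CPM of the 9 Polycomb genes, 1 panel per gene, with 1 point per library and the group mean and SD as a black bar. The 3 groups overlap in every panel except that for Cbx7 the 3 PLT-HSC libraries (26.1 to 55.8) lie above the 4 MUL-HSC libraries (8.97 to 16.6).

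Among members, Eed had the most transcripts per length and Cbx2 the fewest. To compare genes, CPM was divided by the length of the longest protein-coding transcript, in kilobases (kb). On that scale the mean over 13 libraries was 73.5 CPM per kb for Eed, 28.1 for Bmi1, 23.6 for Ezh2, 12.02 for Ezh1, 11.5 for Suz12, 7.08 for Cbx7, 3.82 for Cbx8, 1.49 for Ring1 and 0.847 for Cbx2. SDs over libraries were 19.96, 7.56, 11.6, 6.22, 5.27, 3.79, 1.96, 1.09 and 0.769 in that order. The gap between neighbours was smaller than either SD for Bmi1 and Ezh2 and for Ezh1 and Suz12, and Ring1 and Cbx2 were also within 1 SD of each other. The order of the 9 was the same with the mean length of all transcripts of each gene. Paralogs that fill the same place in the complexes were set beside them. Rnf2, the other H2A ligase, stood at 55.5 CPM per kb, and Pcgf2 and Cbx6 at 3.01 and 2.92.

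**Figure D2:**
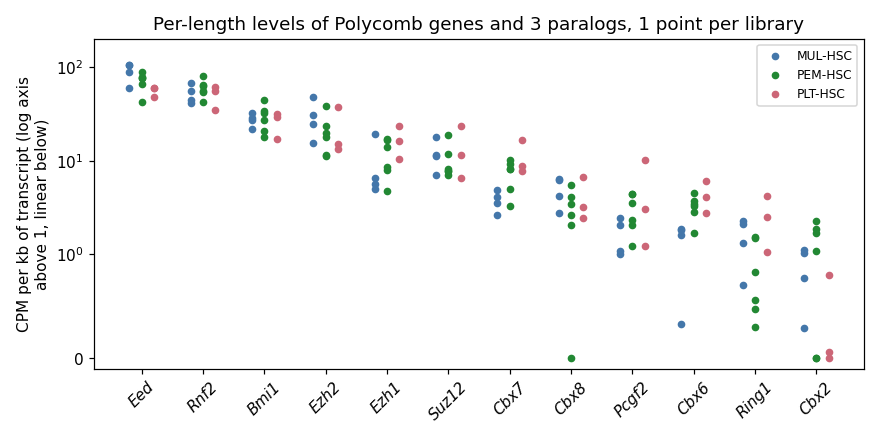
CPM per kb of transcript for the 9 Polycomb genes and 3 paralogs (Rnf2, Pcgf2 and Cbx6), ordered by their mean, with 1 point per library coloured by group; the axis is logarithmic above 1 and linear below. Eed and Rnf2 lead with means of 73.5 and 55.5, and Ring1 and Cbx2 are lowest with 1.49 and 0.847.

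Within PRC2, the methyltransferase Ezh2 stood at 86.3, 132, 43.55 and 68.4 CPM in MUL-HSC replicates 1 to 4. In PEM-HSC its lowest, median and highest values were 31.2, 52.5 and 107 CPM, and in PLT-HSC replicates 1 to 3 it stood at 42.0, 37.5 and 106 CPM. The groups overlapped throughout, and each of them covered most of the range of the 13 libraries. Its log2 fold change was -0.49 in PLT-HSC over MUL-HSC (95% interval -1.50 to 0.51, edgeR adjusted p = 0.998), -0.58 in PEM-HSC over MUL-HSC (-1.41 to 0.25, adjusted p = 0.999) and 0.09 in PLT-HSC over PEM-HSC (-0.83 to 1.01, adjusted p = 1). The sign of both comparisons with MUL-HSC held when 1 library was left out, at -1.004 to -0.14 and -0.85 to -0.23. Without MUL-HSC replicates 1 and 2 together, a choice made after seeing the data, the values were 0.13 and 0.043. Without PLT-HSC replicate 3 the values of PLT-HSC over MUL-HSC and over PEM-HSC were -1.004 and -0.44.

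Ezh1, the paralog of Ezh2 with weaker methyltransferase activity, stood at 20.9, 23.7, 82.1 and 27.8 CPM in MUL-HSC replicates 1 to 4. In PEM-HSC it ran from 20.1 to 72.2 with a median of 47.6 CPM, and in PLT-HSC it stood at 99.1, 43.4 and 68.9 CPM. Every PLT-HSC library lay above 3 of the 4 MUL-HSC libraries, while MUL-HSC replicate 3 lay above 2 of the 3 PLT-HSC libraries. The MUL-HSC mean was 38.6 ± 29.1 CPM (SD, n = 4), that of PEM-HSC 48.6 ± 21.7 (n = 6) and that of PLT-HSC 70.5 ± 27.9 (n = 3). The log2 fold change in PLT-HSC over MUL-HSC was 0.86 (95% interval -0.25 to 1.97, edgeR adjusted p = 0.838). It was 1.54 without MUL-HSC replicate 3 (adjusted p = 0.415) and 0.52 without PLT-HSC replicate 1. In PEM-HSC over MUL-HSC it was 0.32 (-0.63 to 1.27), which became 1.001 without MUL-HSC replicate 3 and 0.12 without MUL-HSC replicate 1, and -0.17 without MUL-HSC replicates 1 and 2. In PLT-HSC over PEM-HSC it was 0.54 (-0.48 to 1.55), and 0.19 without PLT-HSC replicate 1.

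The balance of the 2 enzymes varied between libraries of the same group. Per length, the ratio of Ezh1 to Ezh2 was 0.160, 0.119, 1.249 and 0.269 in MUL-HSC replicates 1 to 4. It ran from 0.366 to 0.876 with a median of 0.593 in PEM-HSC, and was 1.56, 0.766 and 0.432 in PLT-HSC replicates 1 to 3. With these lengths Ezh1 exceeded Ezh2 in 2 of 13 libraries, MUL-HSC replicate 3 and PLT-HSC replicate 1. With the mean length of all transcripts it did so in 3, as PEM-HSC replicate 2 then had a ratio of 1.03. The order of libraries by the ratio is the same for any length, and the 2 highest ratios were in the libraries with the 2 lowest means of the cell cycle list, -1.997 and -2.90.

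Ezh2 and Ezh1 had slopes of opposite sign on the cell cycle list. The slope is the change in log2 level of a gene for each log2 unit of the list mean, fitted by edgeR across all 13 libraries with a term per group, and no member is on the list. For Ezh2 it was 0.35 (SE 0.11, 95% interval 0.13 to 0.58, adjusted p = 0.307). For Ezh1 it was -0.28 (SE 0.13, -0.54 to -0.01, adjusted p = 0.582). Neither passed after adjustment, and the slope was called for 0 of 9 members and 6 of 12536 genes (0.0479%). One of those 6, Top2a, which encodes a topoisomerase of dividing cells, belongs to the list itself (slope 1.27, adjusted p = 0.0112). At an unadjusted p under 0.05 there were 3 members, Ezh2, Ezh1 and Bmi1, where 8.23% of all genes stood. That count was 1 with only the mitosis genes of the list and 2 or 3 when 1 library was left out. The 5 libraries with a list mean above 1 held the 5 highest Ezh2 levels, 68.4 to 132 CPM, and the other 8 ran from 31.2 to 65.6 CPM. Leaving out 1 library gave 0.30 to 0.41 for Ezh2. For Ezh1 the range was -0.42 to -0.11, its ends reached without replicate 3 of PLT-HSC and without replicate 3 of MUL-HSC. The difference between both slopes was not tested. With the list mean as a covariate of the comparisons, 0 members were called. The log2 value of PLT-HSC over MUL-HSC was then -0.017 for Ezh2, 0.65 for Ezh1, -0.43 for Bmi1 and 1.65 for Cbx7. For Ezh2 it was -0.52 in PEM-HSC over MUL-HSC and 0.505 in PLT-HSC over PEM-HSC, against -0.58 and 0.09 without the covariate.

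**Figure D3:**
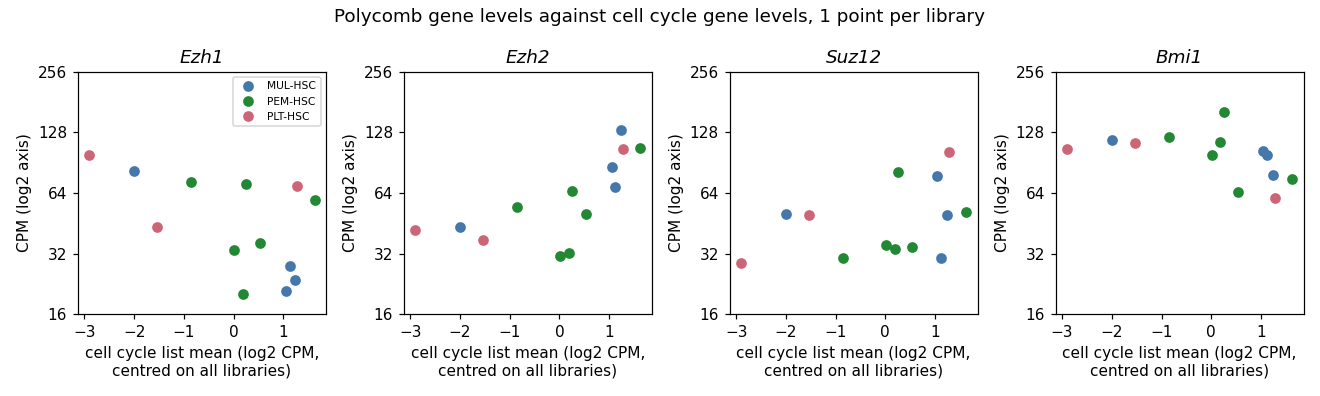
CPM (log2 axis) of Ezh1, Ezh2, Suz12 and Bmi1 against the mean log2 CPM of 20 cell cycle genes, centred on all libraries, with 1 point per library coloured by group. Ezh2 is highest in the 5 libraries with a list mean above 1 (68.4 to 132 CPM), and the highest Ezh1 level (99.1 CPM) is in the library with the lowest list mean (-2.90).

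Eed, which anchors PRC2 on methylated histone, stood at 219, 217, 185 and 124 CPM in MUL-HSC replicates 1 to 4. In PEM-HSC it ran from 86.7 to 183 with a median of 156 CPM, and in PLT-HSC it stood at 125, 99.1 and 125 CPM. PLT-HSC replicates 1 and 3 lay just above MUL-HSC replicate 4, and the other 3 MUL-HSC libraries lay above every PLT-HSC library. Means were 186 ± 44.2 CPM (SD, n = 4) for MUL-HSC, 147 ± 33.1 (n = 6) for PEM-HSC and 116 ± 14.8 (n = 3) for PLT-HSC. The log2 fold change in PLT-HSC over MUL-HSC was -0.71 (SE 0.28, 95% interval -1.29 to -0.12, edgeR adjusted p = 0.637), which did not pass. It ran from -0.87 to -0.60 when 1 library was left out, and was -0.39 without MUL-HSC replicates 1 and 2. In PEM-HSC over MUL-HSC it was -0.37 (-0.85 to 0.11, adjusted p = 0.999), and -0.05 without those 2 libraries. The slope of Eed on the cell cycle list was -0.03 (95% interval -0.20 to 0.14).

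Suz12, the PRC2 scaffold, stood at 77.5, 49.5, 50.2 and 30.4 CPM in MUL-HSC replicates 1 to 4. It ran from 30.4 to 81.5 with a median of 34.8 CPM in PEM-HSC, and stood at 28.6, 49.8 and 102 CPM in PLT-HSC. The PLT-HSC libraries held both the lowest and the highest level of the 13. The log2 fold change in PLT-HSC over MUL-HSC was 0.15 (-0.83 to 1.13), and it was -0.34 without PLT-HSC replicate 3. It was -0.26 in PEM-HSC over MUL-HSC (-1.08 to 0.57), 0.024 without MUL-HSC replicate 1 and 0.15 without MUL-HSC replicates 1 and 2. It was 0.41 in PLT-HSC over PEM-HSC (-0.49 to 1.30), and -0.10 without PLT-HSC replicate 3. Its slope on the cell cycle list was 0.21 (adjusted p = 0.761).

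Within PRC1, Bmi1, the partner that activates the ligase, stood at 104, 78.3, 117 and 98.4 CPM in MUL-HSC replicates 1 to 4. It ran from 65.0 to 162 with a median of 106.5 CPM in PEM-HSC, and stood at 106, 113 and 60.7 CPM in PLT-HSC. Group means were within 1 SD of each other, at 99.4 ± 16.1 (n = 4), 106 ± 35.0 (n = 6) and 93.3 ± 28.5 CPM (n = 3). The log2 fold change was -0.07 in PLT-HSC over MUL-HSC, with a 95% interval of -0.77 to 0.63, and 0.08 in PEM-HSC over MUL-HSC, with an interval of -0.52 to 0.67. Both changed sign when single libraries were left out, over -0.31 to 0.20 and -0.075 to 0.19. In PLT-HSC over PEM-HSC it was -0.15 (-0.80 to 0.51), and 0.11 without PLT-HSC replicate 3. The slope of Bmi1 on the cell cycle list was -0.22 (SE 0.09, 95% interval -0.41 to -0.02, edgeR adjusted p = 0.524) and kept its sign without each library, at -0.28 to -0.15. Its closest paralog, Pcgf2, was below it per length in all 13 libraries, with Bmi1 at 1.64 to 32.3 times Pcgf2.

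Ring1, a catalytic subunit of PRC1, was among the scarcest members. It stood at 1.44, 2.70, 4.64 and 4.28 CPM in MUL-HSC replicates 1 to 4 and at 5.03, 2.13 and 8.63 CPM in PLT-HSC, and ran from 0.604 to 3.11 CPM in PEM-HSC with a median of 1.41. All 13 values lay above the floor of 3 counts. Its paralog Rnf2, also called Ring1B, averaged 167 CPM in MUL-HSC, 193 in PEM-HSC and 162 in PLT-HSC, and per length exceeded Ring1 in all 13 libraries, by 8.19 to 189 times. The intervals of Ring1 were wide, with log2 fold changes of 0.64 (-2.41 to 3.68, and 0.18 without PLT-HSC replicate 3) in PLT-HSC over MUL-HSC, -0.90 (-3.46 to 1.65) in PEM-HSC over MUL-HSC and 1.54 (-1.19 to 4.28) in PLT-HSC over PEM-HSC. Those of Rnf2 were narrower, at -0.03 (-0.60 to 0.55), 0.19 (-0.30 to 0.67) and -0.21 (-0.75 to 0.32) in that order.

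Cbx7, the chromodomain subunit that ties PRC1 to methylated histone, was the 1 member whose groups did not overlap. It stood at 8.97, 16.6, 11.9 and 13.8 CPM in MUL-HSC replicates 1 to 4 and at 26.1, 29.4 and 55.8 CPM in PLT-HSC replicates 1 to 3. In PEM-HSC it ran from 11.1 to 34.6 with a median of 27.8 CPM. All 3 PLT-HSC values exceeded all 4 MUL-HSC values, as in 3.75% of all tested genes in that direction, and 5 of 6 PEM-HSC libraries lay above the highest MUL-HSC library. No member was lower without overlap there, as 3.04% of genes were, and 0 members were apart in PEM-HSC over MUL-HSC (0.862% of genes higher, 0.63% lower) or PLT-HSC over PEM-HSC (1.1% and 1.06%). Means were 12.8 ± 3.19 CPM (SD, n = 4) for MUL-HSC, 24.8 ± 8.95 (n = 6) for PEM-HSC and 37.1 ± 16.3 (n = 3) for PLT-HSC. The log2 fold change in PLT-HSC over MUL-HSC was 1.49 (SE 0.51, 95% interval 0.41 to 2.58), or 2.82-fold. It did not pass, with an edgeR adjusted p of 0.553. It was 1.18 without replicate 3 of PLT-HSC and 1.70 without replicate 1, the extremes when 1 library was left out, and 1.54 without MUL-HSC replicates 1 and 2. The lowest adjusted p over all settings was 0.112, with DESeq2. In PEM-HSC over MUL-HSC it was 0.93 (-0.01 to 1.88, edgeR adjusted p = 0.859), and in PLT-HSC over PEM-HSC 0.56 (-0.43 to 1.55), which was 0.23 without PLT-HSC replicate 3.

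Other values were set beside Cbx7 by group. Macrophage markers (5 genes) had summed levels of 11.96 to 19.7 CPM in the MUL-HSC libraries, 39.3 to 187 in PLT-HSC libraries and 30.4 to 286 in those of PEM-HSC, and 2 of the 3 that were tested had a positive fold change in PLT-HSC over MUL-HSC. Most of the sum was Cd68, a lysosomal protein (14.0, 80.0 and 123 CPM, edgeR adjusted p = 0.186 in PLT-HSC and 0.51 in PEM-HSC over MUL-HSC). The defining marker Csf1r was at 0 in 12 of 13 libraries and under the floor in the other. The HSC markers summed to 2030 to 2871 CPM in PLT-HSC, against 1375 to 2031 for MUL-HSC libraries and 1640 to 2550 for those of PEM-HSC. Of these 9 genes 8 had a positive fold change in PLT-HSC over MUL-HSC, with a median log2 value of 0.86 and 0 called. Mecom, a transcription factor of HSCs, averaged 206 ± 62.9 CPM for PLT-HSC (SD, n = 3), 76.0 ± 27.9 for MUL-HSC (n = 4) and 135 ± 79.7 for PEM-HSC (n = 6), with no overlap between MUL-HSC and PLT-HSC (edgeR adjusted p = 0.445). The part of the macrophage and HSC markers in the level of Cbx7 was not tested. RefSeq has Cbx7 overlap the antiviral gene Apobec3 by 2415 bases, and no strand mode is given for the counts. Apobec3 stood at 214 ± 32.1, 199 ± 40.7 and 204 ± 56.0 CPM in MUL-HSC, PEM-HSC and PLT-HSC, with a log2 fold change of -0.06 (-0.57 to 0.45) in PLT-HSC over MUL-HSC. Ezh2 and Cbx2 overlap the non-coding genes F830010H11Rik (62 bases) and Gm35829 (821 bases), which are not among the genes analysed here.

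**Figure D4:**
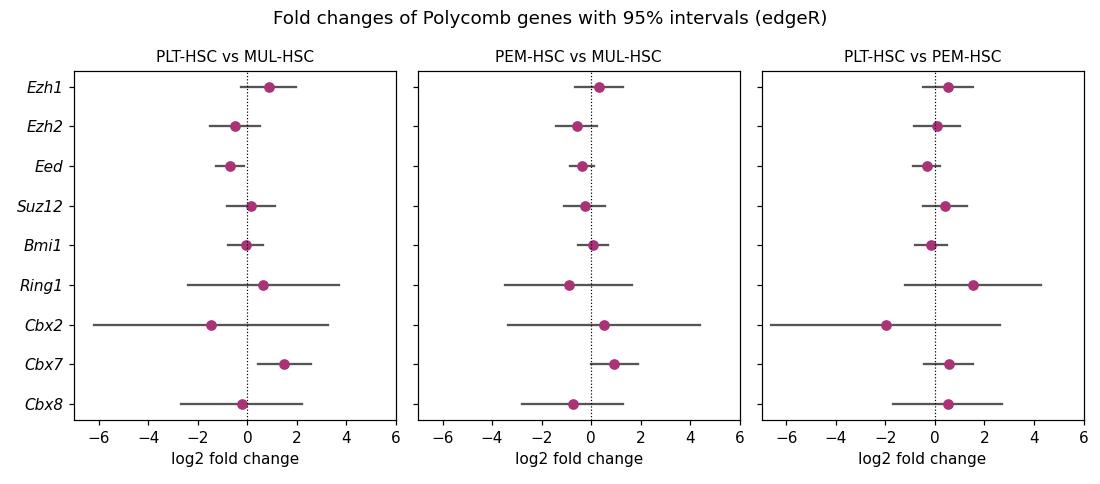
Log2 fold changes of the 9 Polycomb genes in the 3 comparisons, as points with 95% intervals from edgeR, and a dotted line at 0. In PLT-HSC over MUL-HSC the intervals of Cbx7 (0.41 to 2.58) and Eed (-1.29 to -0.12) lie off 0 before adjustment for all genes, and the interval of every other gene in every panel spans 0.

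Cbx8, an alternative chromodomain subunit, stood at 15.1, 22.6, 9.96 and 22.1 CPM in MUL-HSC replicates 1 to 4 and at 24.2, 11.4 and 8.66 CPM in PLT-HSC. It ran from 0 to 19.6 with a median of 10.9 CPM in PEM-HSC. A count of 0 in PEM-HSC replicate 1 allows up to 0.107 CPM, the value of 3 counts there, which covers counting error only. The log2 fold change was -0.24 (-2.68 to 2.20) in PLT-HSC over MUL-HSC and 0.071 without PLT-HSC replicate 3. It was -0.75 (-2.78 to 1.28) in PEM-HSC over MUL-HSC, and 0.51 (-1.70 to 2.72) in PLT-HSC over PEM-HSC, which was -0.045 without PLT-HSC replicate 1.

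Cbx2, also a chromodomain subunit, was near its floor in part of the libraries. It stood at 3.92, 2.93, 1.10 and 4.28 CPM in MUL-HSC and at 3.07, 0 and 0.216 CPM in PLT-HSC. It ran from 0 to 8.66 with a median of 5.28 CPM in PEM-HSC. The 3 libraries at 0 were PEM-HSC replicates 1 and 6 and PLT-HSC replicate 2. Its intervals were the widest of the 9, at -6.21 to 3.24 for a log2 fold change of -1.48 in PLT-HSC over MUL-HSC. That value was -4.86 without PLT-HSC replicate 1, -0.90 without replicate 2, -0.98 without replicate 3 and -3.68 with limma voom. In PEM-HSC over MUL-HSC it was 0.51 with edgeR and -1.76 with limma voom, and 0.18 to 0.77 when 1 library was left out, the ends without PEM-HSC replicates 5 and 6. In PLT-HSC over PEM-HSC it was -1.99 (-6.63 to 2.64), and -5.37 and -1.41 without PLT-HSC replicates 1 and 2.

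The make-up of the Cbx pool was described as the share of CPM per kb over 4 Polycomb Cbx genes, Cbx2, Cbx6, Cbx7 and Cbx8. Cbx7 made up 27.3% to 41.7% of it in MUL-HSC and 42.7% to 65.95% in PLT-HSC. In PEM-HSC it ran from 23.2% to 78.3% with a median of 51.1%, a range that covers both other groups. Its upper end rests on PEM-HSC replicate 1, where Cbx8 and Cbx2 had counts of 0. The next highest PEM-HSC share was 58.5%, in replicate 6, below the highest of PLT-HSC. Cbx8 made up 32.96% to 51.3% of the pool in MUL-HSC, 9.69% to 37.4% for PLT-HSC and 0% to 38.7% for PEM-HSC. Cbx2 reached at most 13.6% in any library. Cbx6 stood at 8.14 ± 4.18 CPM in MUL-HSC (SD, n = 4) and 25.0 ± 9.45 in PLT-HSC (n = 3), and these groups did not overlap either. Its log2 fold change there was 1.60 (edgeR adjusted p = 0.646), and 1.196 in PEM-HSC over MUL-HSC (adjusted p = 0.86).

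**Figure D5:**
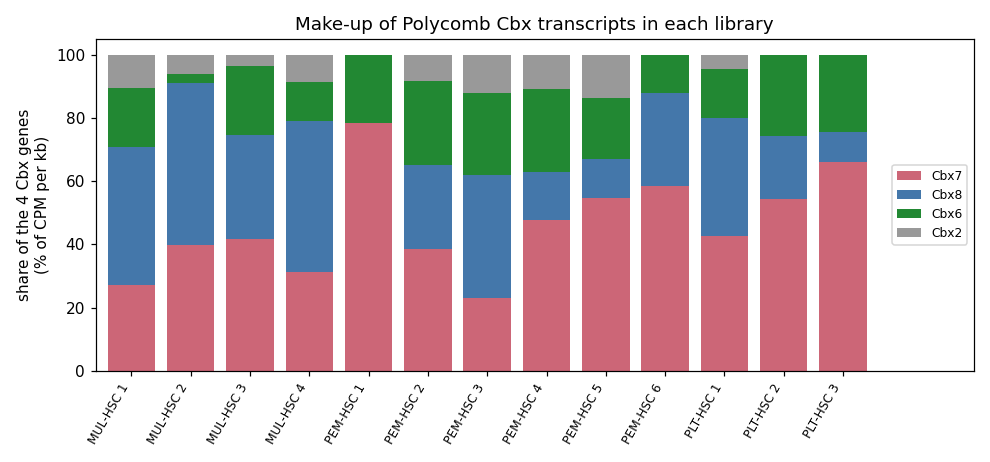
Share of each of the 4 Cbx genes in their summed CPM per kb (stacked bars, percent), 1 bar per library. The Cbx7 share lies between 27.3% and 41.7% in the 4 MUL-HSC libraries, between 42.7% and 65.95% in the 3 PLT-HSC libraries and between 23.2% and 78.3% in the 6 PEM-HSC libraries.

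PLT-HSC replicate 3 had the highest level of the 13 libraries for 3 of 9 members (Suz12, Cbx7 and Ring1) and for 2 of 3 paralogs (Pcgf2 and Cbx6). It had the lowest level for Bmi1 and Rnf2. Of all tested genes 16.0% were highest in that library, against 4.98% to 8.48% in each of the other 12. PLT-HSC replicate 1 was highest for 2 members, Ezh1 and Cbx8, and lowest for Suz12. Replicate 3 was the only PLT-HSC library with a positive mean of the cell cycle list, at 1.28, where replicate 1 had -2.90. The part of cell cycle genes in these levels was not tested. The spread over libraries was smallest for Rnf2, Bmi1 and Eed, with coefficients of variation of 22.6%, 26.9% and 27.1%. For genes of like mean CPM the median was 23.8%, 29.2% and 24.8%. Ezh1, Ezh2 and Suz12 had 51.8%, 49.2% and 45.8%, against medians of 41.03%, 35.7% and 41.3%. Of the genes of like level 77.7%, 83.6% and 62.4% varied less. That share was 60.55% for Eed, 41.5% for Bmi1, 45.9% for Cbx7, 20.7% for Cbx2, 17.9% for Cbx8 and 8.76% for Ring1.

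Other genes of the Polycomb pathway gave 0 calls by edgeR in each of the 3 comparisons. In PLT-HSC over MUL-HSC, 5 of 7 tested other PRC2 subunits and 13 of 20 tested other PRC1 subunits had a positive fold change, with median log2 values of 0.32 and 0.41. The 9 members had 4 positive and a median of -0.07, and all tested genes had 52.4% positive and a median of 0.04. At an unadjusted p under 0.05 there were 1 PRC2 and 3 PRC1 subunits, where 7.37% of all tested genes stood. There were 1 and 2 in PEM-HSC over MUL-HSC (5.93% of all genes) and 0 and 0 in PLT-HSC over PEM-HSC (3.73%). Rbbp7, a histone-binding PRC2 subunit shared with other complexes, was the most abundant at 1440 ± 164 CPM (SD, n = 4) for MUL-HSC, 1227 ± 109 (n = 6) for PEM-HSC and 1128 ± 164 (n = 3) for PLT-HSC. Its paralog Rbbp4 averaged 186, 214 and 230 CPM in that order. Yaf2, a subunit of PRC1 forms without Cbx, stood at 214 ± 37.8, 191 ± 26.7 and 149 ± 38.6 CPM, with a log2 fold change of -0.56 in PLT-HSC over MUL-HSC (edgeR adjusted p = 0.632). In PEM-HSC over MUL-HSC, 4 of 7 and 13 of 20 were positive, with medians of 0.19 and 0.13, against -0.26 for the members. In PLT-HSC over PEM-HSC, 6 of 7 and 12 of 20 were positive, with medians of 0.13 and 0.17, against 0.41 for the members.

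Opposing enzymes were not called by edgeR either. Of the enzymes that remove Polycomb marks, 3 of 6 tested were positive in PLT-HSC over MUL-HSC, with a median log2 fold change of -0.01, and 4 and 2 of 6 in PEM-HSC over MUL-HSC and PLT-HSC over PEM-HSC. Usp16, which removes ubiquitin from histone H2A, averaged 52.5, 59.2 and 61.2 CPM in MUL-HSC, PEM-HSC and PLT-HSC. Asxl2, a cofactor of the deubiquitinase Bap1, averaged 29.7, 52.9 and 29.3 CPM, with a log2 fold change of 0.79 in PEM-HSC over MUL-HSC (edgeR adjusted p = 0.948). COMPASS genes, whose complexes place the activating histone H3 methylation that Polycomb opposes, had 9 of 11 positive in PLT-HSC over MUL-HSC, 7 of 11 in PEM-HSC over MUL-HSC and 11 of 11 in PLT-HSC over PEM-HSC. Their medians were 0.44, 0.06 and 0.48, where 52.4%, 50.7% and 51.5% of all tested genes were positive. Dpy30 and Ash2l, the most abundant of them, stood at 231, 180 and 189 CPM and at 109, 115 and 117 CPM. At an unadjusted p under 0.05 there were 1, 0 and 0 COMPASS genes and 1, 0 and 0 enzymes that remove marks. Of all tested genes 7.37%, 5.93% and 3.73% stood there in that order.

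Genes known as Polycomb targets were mostly at or near 0 in all groups. Of 15 listed, 8 were at 0 in every library, among them Cdkn2a, the cell cycle inhibitor locus that Bmi1 is known to repress, and Pax5, the B cell factor. Cdkn2b, its neighbour, was at 3.79 CPM in PLT-HSC replicate 1 and at 0 in the other 12 libraries. Ebf1, an early B cell factor, was at 5.12 CPM in PEM-HSC replicate 4 and at or under the floor in the other 12. Hmga2, a chromatin protein of fetal HSCs, was the most abundant target, at 9.45 to 18.3 CPM over 13 libraries. Its means were 14.1 ± 3.96 CPM (SD, n = 4) for MUL-HSC, 12.4 ± 2.81 (n = 6) for PEM-HSC and 14.9 ± 0.579 (n = 3) for PLT-HSC. Pax6, a neural and eye factor, was next with a mean of 0.698 CPM, and 3 target genes passed the low count filter, none called.

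For each member, the 3 genes of most similar pattern were found by Pearson r of log2 CPM over the 13 libraries, among the 8683 tested genes with a mean of at least 10 CPM, leaving out the member itself. The values are the best of many and are given as a description. Ezh2 was most like Ube2t (0.92), Cbx5 (0.85) and Hmmr (0.84), of which Ube2t acts in DNA crosslink repair and Hmmr in the mitotic spindle. Ezh1 was most like Ryk (0.85), Cstf3 (0.81) and Cytip (0.81). Eed was most like Nsmce2 (0.90), Serf1 (0.88) and Lsm6 (0.87), and Suz12 was most like Rbbp6 (0.91), Sos1 (0.85) and Cnot6 (0.85). Bmi1 was most like Dynlt3 (0.91), Mat2b (0.88) and Zdhhc13 (0.87). Cbx7 was most like Socs5 (0.84), Mecom (0.83) and Ap3b1 (0.83), of which Mecom is 1 of the 9 HSC markers above. Cbx8 was most like Ints12 (0.97), Gtf2ird1 (0.96) and Tmem129 (0.96), Ring1 like Klf11 (0.88), Tbc1d14 (0.84) and Rprd1a (0.84), and Cbx2 like Nufip1 (0.85), Nfkbib (0.83) and Peg13 (0.83). For Cbx8 and Cbx2, libraries at 0 weigh on these values.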

How the data were processed

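Polyadenylated RNA of 13 libraries was made into cDNA with Smart-seq+ and into Nextera XT libraries, per the labels. The submitters' processing notes name Trimmomatic, FastQC, STAR and featureCounts and the build mm9. Their versions, the annotation and the strand setting are not given in the sources used here. Values as deposited are raw counts by gene symbol, which the authors had not normalized. Reads carry no molecular identifiers, so PCR copies are counted, and limits from a count of 0 cover counting error only. Replicate libraries all differed beyond sampling noise (lowest chi-square per degree of freedom 163, over genes with at least 20 counts).

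The 92 ERCC rows entered neither library sizes nor tests. Tests used edgeR 4.0.16 (R 4.3.3) with filterByExpr, TMM scaling and a robust quasi-likelihood fit, 1 term for each group and all libraries in the fit. Benjamini-Hochberg adjustment ran over 12536 genes, never over the members alone, and a gene was called under 0.05. The biological coefficient of variation was 0.993. The slope on cell cycle genes used log2 CPM with a prior count of 2. The code was tested on simulated data. Lengths came from GENCODE, and promoters from RefSeq for a later build than mm9.

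Members and gene lists were chosen with earlier results of these data known. The text names all members and 3 paralogs, the called genes of each other list or else its 2 most abundant ones, and the 3 genes most like each member. Apobec3, Cd68, Csf1r, Cdkn2a, Cdkn2b, Pax5, Ebf1 and the markers at 0 were chosen after their values were seen. Alternatives were DESeq2 1.42.0, limma 3.58.1 voom, other size factors, filters and samples, covariates, a replicate block and each library left out. Leaving out MUL-HSC replicates 1 and 2 together was chosen after seeing the data. Some listed genes are not reported here.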

Additional observations from a re-analysis of the deposited data

Results flagged for a closer look

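Of 40 groups of 4 to 6 libraries checked for a library far from the others, 3 held one. Chance gives about 1 in 20. Ezh1 stood at 82.1 CPM in MUL-HSC replicate 3, where the other MUL-HSC libraries ran from 20.9 to 27.8 CPM. The cell cycle list mean of that library was -1.997, where the others of its group ran from 1.05 to 1.24. Cbx6 stood at 1.93 CPM in MUL-HSC replicate 2, where the others ran from 9.38 to 10.8 CPM.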

How the results depend on the processing

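The count of called members was 0 in every comparison, and for the slope, under every setting tried. Over all genes, PLT-HSC over MUL-HSC gave 6 calls, and 11 without a filter, 14 with a mean of at least 10 CPM, 249 with DESeq2, 0 with voom (1095 at an unadjusted p under 0.05), and 1 each with only these groups, with the cell cycle mean as a covariate, and without MUL-HSC replicates 1 and 2. PEM-HSC over MUL-HSC gave 1, and 175 with DESeq2, 7 with the cell cycle mean as a covariate, and 0 with only these groups or detected genes as a covariate. PLT-HSC over PEM-HSC gave 0, and 93 with DESeq2 and 1 with voom. Leaving out 1 library gave 1 to 37 (37 without PLT-HSC replicate 3), 0 to 4 and 0 to 2 in that order, and 0 to 20 for the slope, against 6 (0 without PLT-HSC replicate 3 and 20 without replicate 4 of MUL-HSC). The cause was not tested.

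Of the members' fold changes, 619 values under an alternative kept direction and side of the threshold and 23 changed sign; for slopes these were 144 and 9. Sign changed for Bmi1 in PLT-HSC over MUL-HSC with detected genes as a covariate (0.12), for Cbx2 in PEM-HSC over MUL-HSC with voom (-1.76), and without MUL-HSC replicates 1 and 2 for Ezh2 in PLT-HSC over MUL-HSC (0.13) and for Ezh1, Ezh2 and Suz12 in PEM-HSC over MUL-HSC (-0.17, 0.043 and 0.15). Leaving out 1 library, ranges that crossed 0 were, in PLT-HSC over MUL-HSC, -0.34 to 0.50 for Suz12, -0.31 to 0.20 for Bmi1 and -0.79 to 0.071 for Cbx8. In PEM-HSC over MUL-HSC they were -0.51 to 0.024 for Suz12 and -0.075 to 0.19 for Bmi1. In PLT-HSC over PEM-HSC they were -0.44 to 0.36 for Ezh2, -0.10 to 0.74 for Suz12, -0.38 to 0.11 for Bmi1 and -0.045 to 0.81 for Cbx8. For slopes they were -0.55 to 0.69 for Cbx2, -0.28 to 0.12 for Cbx8 and -0.26 to 0.16 for Ring1.

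Libraries with the same replicate number did not deviate together: of 10 such pairs 0 had a correlation over 0.1 (-0.132 to 0.0481). With groups this small, these correlations cannot decide whether the numbers pair samples. With a replicate block, 2, 0 and 0 genes were called in PLT-HSC over MUL-HSC, PEM-HSC over MUL-HSC and PLT-HSC over PEM-HSC, where 650, 458 and 336 had an unadjusted p under 0.05, and 0 members were called. The sign changed for Bmi1 in PEM-HSC over MUL-HSC (-0.049) and Ezh2 in PLT-HSC over PEM-HSC (-0.081). With the mean length of all transcripts, 7 of 9 per-length levels moved by over 1 SD, to 28.2 CPM per kb for Ezh1 and 186.7 for Eed, with the order kept. Low levels, as for Ring1, and levels at the floor in part of the libraries, as for Cbx2, limit what can be detected.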
